A study of Drosophila melanogaster with 4 samples.

Results

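The 9 genes described here encode the enzymes that make the insect moulting hormone ecdysone and the enzyme that removes it: nvd, spo, spok, sro, phm, dib, sad and shd for synthesis, and Cyp18a1 for turnover. They are 9 of 13968 protein-coding genes and were taken as a named pathway, chosen with earlier results of these data known. A summit was counted at a gene when it lay inside the gene span or within 5 kb of it in dm6. ChIP-seq, the sequencing of DNA that is precipitated with a chromatin protein, was used to map Doublesex, which directs sex-specific development in flies. The material was whole Drosophila melanogaster prepupae, males and females together, aged 24 h. The flies carried a dsx-eGFP transgene, with green fluorescent protein at the C terminus of dsx, and the tag was the target of the antibody. The labels do not say whether the tagged copy replaced the endogenous gene. All 4 samples, biological replicates 1 to 4, belong to this single group, so no groups were compared and no test between conditions was possible. Males, females and all tissues were mixed, so no summit can be assigned to a sex or to a tissue.

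Each replicate had a list of 30000 peak summits, and a pooled list of 30000 summits came from replicates 2, 3 and 4. The 9154 strongest of the pooled list form the list of reproducible summits, which passed the authors' threshold on the irreproducible discovery rate. Replicate 1 fed neither list. The strength of a summit is the authors' signal value, which is not comparable between lists. It is given here as a rank within its list, with 1 the strongest, or as a percentage of the highest value in the same list. The lists hold no read counts, so the depth behind a summit is unknown.

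Ecdysone is made from dietary sterols in the prothoracic gland by a chain of oxygenases and reductases known in flies as the Halloween enzymes. The Rieske-type oxygenase Nvd takes the first step. The cytochrome P450 enzymes Spo and Spok and the short-chain dehydrogenase/reductase Sro act in the poorly understood steps that follow. The P450 hydroxylases Phm, Dib and Sad complete ecdysone. Shd, a P450 hydroxylase of peripheral tissues such as the fat body, turns ecdysone into the active hormone, and the P450 enzyme Cyp18a1 inactivates it. Pulses of the hormone time the larval moults, pupariation and metamorphosis.

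Doublesex binding was concentrated at the last enzyme of the chain. The shd window held 7 reproducible summits, 6 of them upstream of the gene. Those at phm and Cyp18a1 were 2 summits shared by both windows, and sro had 1, which lay at the start of a neighbouring gene. The windows of nvd, spo, spok, dib and sad held no reproducible and no pooled summit. A reproducible summit was present at 4 of the 9 genes (44.4%), against 52.3% of all protein-coding genes under the same rule. A pooled summit was present at 4 of 9 genes, against 66.6% of all genes. Summits in every replicate's list were present at 4 of the 9 genes, against 58.4% of all genes. In the single lists a summit was present at 5, 5, 4 and 5 of the 9 genes in replicates 1 to 4, against 70.7%, 70.4%, 68.1% and 70% of all genes. These shares depended on gene length: a pooled summit was present at 61.7% of genes with spans under 5000 bp and at 87.3% of those with spans of 20000 bp or more. For a reproducible summit the shares were 47.1% and 74.3% in the same order. For all 9 genes together the counts lay below the shares of all genes, and with 9 genes and no test this is a description. The 44.4% with a reproducible summit lay close to the 47.1% of genes with spans under 5000 bp.

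**Figure D1:**
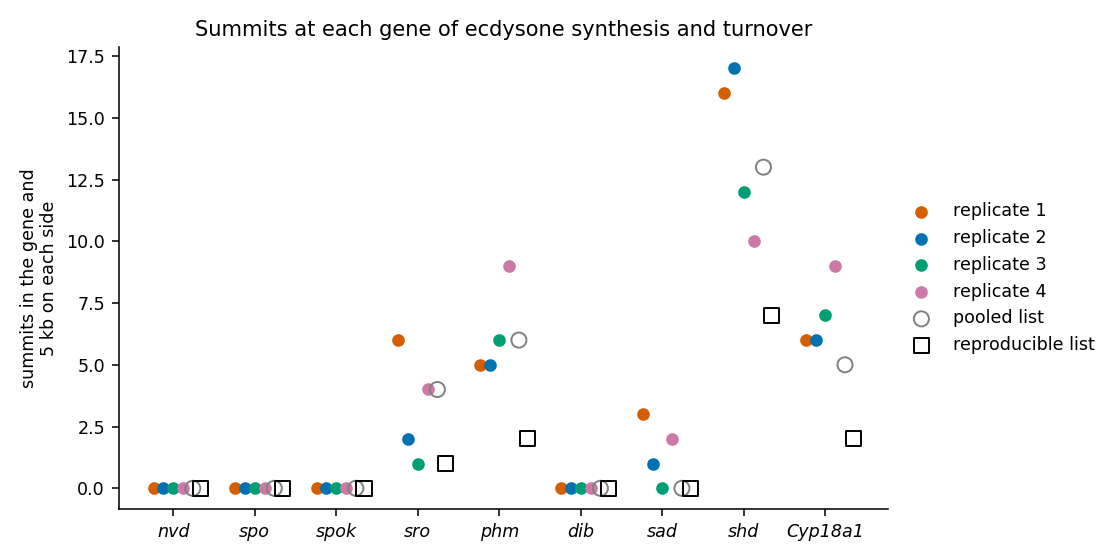
Number of summits (vertical axis) in the gene and 5 kb on each side for each of the 9 genes, in the order of their steps, in each replicate (coloured points), the pooled list (circles) and the reproducible list (squares). The shd window held 10 to 17 summits in the replicates and 7 in the reproducible list, while nvd, spo, spok and dib had 0 in every list.

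The core of the Doublesex binding site was present at 3 of the 4 strongest summits, and absent from the third strongest, at the shd promoter. Shown here are the 101 bases centred on the 3 strongest summits at shd and on the strongest at phm, from the plus strand of the RefSeq copy of dm6. Capitals mark the core ACAATGT, which reads ACATTGT on this strand.
shd, summit 1194 bp upstream, chr3L:14613214-14613314: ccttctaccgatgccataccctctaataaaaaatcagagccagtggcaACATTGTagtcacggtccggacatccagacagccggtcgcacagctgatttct
shd, summit 2625 bp upstream, chr3L:14611783-14611883: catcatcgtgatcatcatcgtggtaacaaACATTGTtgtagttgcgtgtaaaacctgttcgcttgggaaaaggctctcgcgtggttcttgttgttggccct
shd, summit 107 bp upstream, chr3L:14614301-14614401: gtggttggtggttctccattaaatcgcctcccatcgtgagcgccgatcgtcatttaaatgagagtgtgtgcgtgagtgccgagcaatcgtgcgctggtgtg
phm, summit 1191 bp upstream, chrX:18684525-18684625: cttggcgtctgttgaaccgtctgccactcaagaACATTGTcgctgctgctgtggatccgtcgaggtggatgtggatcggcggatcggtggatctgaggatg

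The core was found, on either strand, within 50 bp of 3 of the 10 reproducible summits at these genes, against 8.06% of all 9154 reproducible summits. It lay 1 bp from the summit 1194 bp upstream of shd, 18 bp from the one 2625 bp upstream, and 14 bp from the one 1191 bp upstream of phm. These distances run from the centre of the core. The related sequence ACAAAGT was at 0 of the 10 summits and at 6.84% of all reproducible summits. The degenerate Doublesex consensus, a longer pattern that overlaps both of these sequences, was at 2 of the 10 and at 6.07% of all. With 10 summits, these shares are descriptions of single sites. Searched in the same way from 250 bases before to 50 after the gene start, the core was in 1 of the 9 promoters, that of nvd, against 4.62% of all protein-coding genes. ACAAAGT and the degenerate consensus were in 0 of the 9 promoters, and in 6.34% and 4.11% of all.

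The summit 1194 bp upstream of shd (gene FBgn0003388, 3L 14614458 to 14622205, plus strand) was among the strongest of the whole experiment in each replicate. It lay in intergenic sequence at 3L 14613264 and had rank 7 in the pooled list, with a signal value of 16382. It ranked 6 in replicate 1 and 7 in replicates 2, 3 and 4, which averages to 6.75 ± 0.5 (SD, n = 4). Of all protein-coding genes, 12 (0.0859%) had a summit of this rank or stronger in their window. As a share of the list's highest value, its signal was 16.1% and 17.1% in replicates 1 and 2, and 32.2% and 33.4% in replicates 3 and 4, averaging 24.7% ± 9.37 (SD, n = 4). Replicates 3 and 4 were thus higher than replicates 1 and 2 on this scale, while the rank moved by 1 place. The position was close to constant, since the 4 replicate summits fell within 23 bp of each other.

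A second strong summit lay 2625 bp upstream of shd, at 3L 14611833, and had rank 164 in the pooled list. Its rank was 142, 163, 220 and 155 in replicates 1 to 4, averaging 170 ± 34.4 (SD, n = 4). It reached 4.23%, 4.11%, 5.75% and 6.38% of the highest value in replicates 1 to 4. The third summit lay at the promoter itself, 107 bp upstream of the annotated start, at 3L 14614351, and had rank 609 in the pooled list. It ranked 265, 478, 967 and 1103 in replicates 1 to 4. It reached 3.14%, 2.45%, 2.78% and 2.25% of the highest value in the same order. No core lay within 50 bp of this promoter summit.

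The order of these 3 summits was the same in all 4 replicates. The signal of the summit 1194 bp upstream was 3.81, 4.15, 5.60 and 5.23 times that of the summit 2625 bp upstream in replicates 1 to 4, averaging 4.70 ± 0.854 (SD, n = 4). The summit 2625 bp upstream was in turn 1.35, 1.67, 2.07 and 2.84 times as strong as the promoter summit. The promoter summit was relatively strongest in replicate 1, the replicate outside the pooled list.

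**Figure D2:**
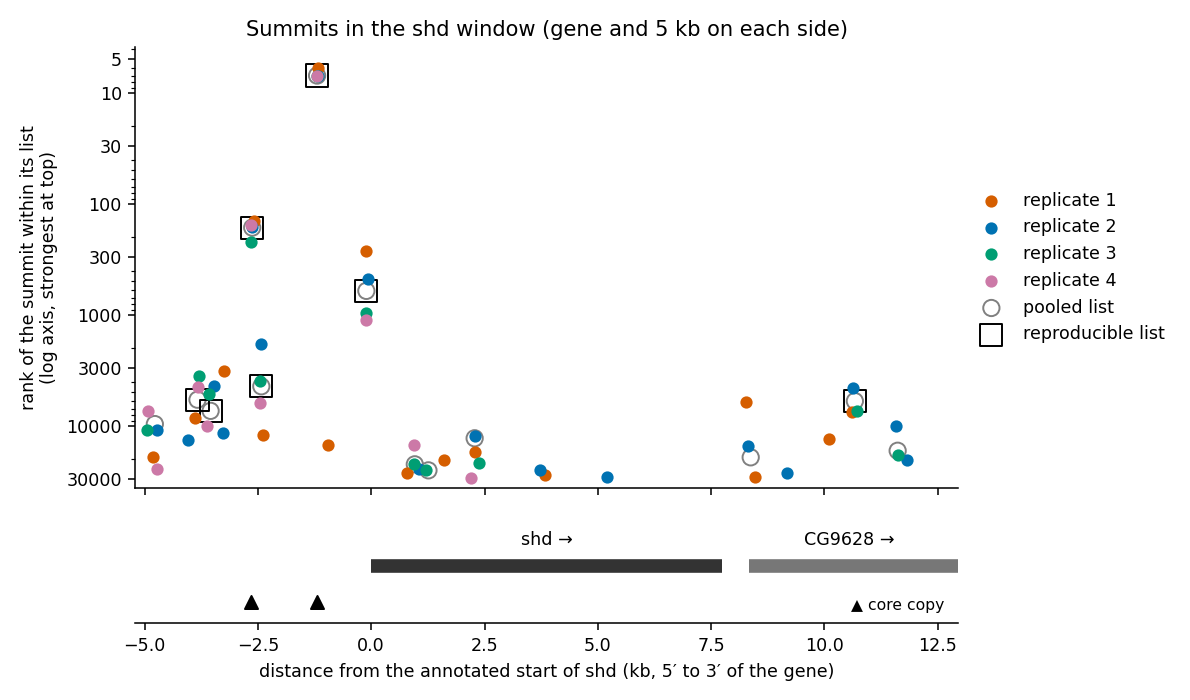
Rank of every summit in the shd window within its own list (vertical log axis, strongest at top) against distance from the annotated shd start in kb, for the 4 replicates (points), the pooled list (circles) and the reproducible list (squares). Bars below show shd and CG9628 with arrows for their direction, and triangles mark copies of the core; the 2 copies coincide with the summits of rank 7 and 164.

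The other reproducible summits at shd were weaker and less constant. Those 3832 and 3543 bp upstream (ranks 5821 and 7334 in the pooled list) each had a summit within 100 bp in 3 of the 4 replicates. The site at 3832 bp had no partner in replicate 2, and the site at 3543 bp had none in replicate 1. The summit 2424 bp upstream (rank 4409) lay under 260 bp from the stronger summit 2625 bp upstream, on its higher-coordinate side. The reproducible list holds 713 summits placed in this way beside a stronger one. Whether the summit 2424 bp upstream is a separate site was not tested. Its rank was 12061, 1821, 3945 and 6185 in replicates 1 to 4. All 4 summits from 3832 to 2424 bp upstream lay in a single called interval of 2226 bp.

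The summit past the 3′ end of shd, at 3L 14625128, lay in an intron of CG9628, 2332 bp downstream of the start of that gene. It had rank 5991 in the pooled list and partners in replicates 1, 2 and 3 at ranks 7487, 4565 and 7326, but none in replicate 4. Within the transcribed span of shd no reproducible summit was listed. The pooled list held 3 summits there, the strongest at rank 12952, and the replicates held 4, 4, 3 and 2. The weak summit just outside the reproducible list was 4773 bp upstream, at rank 9648. In all, 2.44% of protein-coding genes had 7 or more reproducible summits in their window.

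**Figure D3:**
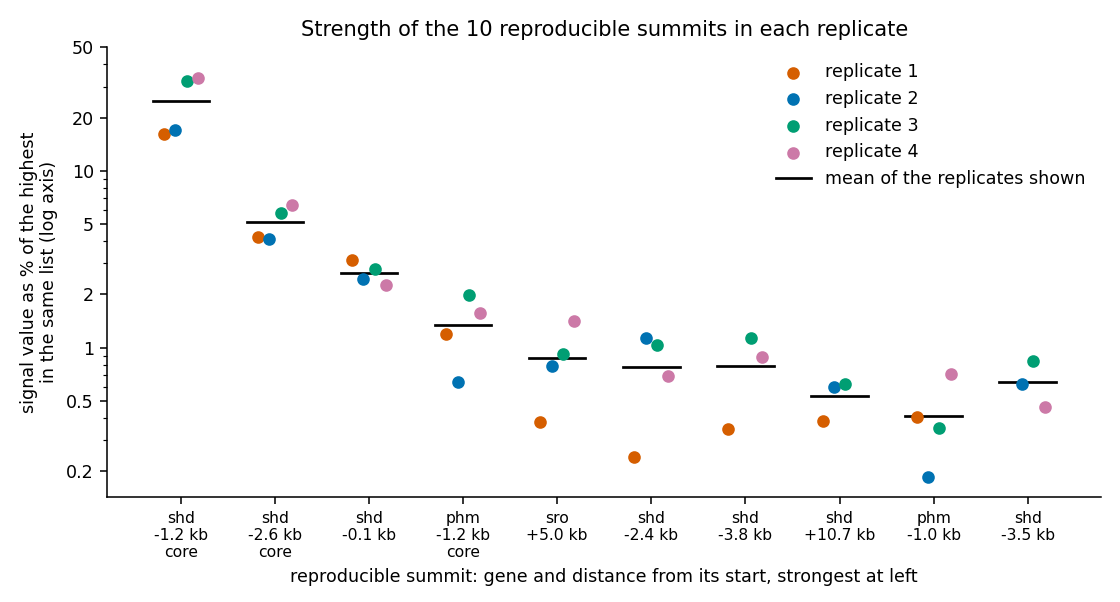
Signal value as a percentage of the highest in the same list (vertical log axis) for the 10 reproducible summits at these genes, ordered by strength in the pooled list, with each replicate as a point and the mean of the replicates shown as a bar. The summits 1.2 and 2.6 kb upstream of shd and 1.2 kb upstream of phm, marked "core", hold the core within 50 bp; a replicate without a summit within 100 bp has no point.

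The genes phm and Cyp18a1 are neighbours on the X chromosome and share their reproducible summits. Their 3′ ends face each other 105 bp apart, so that a gene for the synthesis and the gene for the removal of the hormone start 7276 bp from each other. The gene phm (FBgn0004959, X 18685766 to 18688433, plus strand) carries the symbol phtm in the annotation. The stronger summit lay 1191 bp upstream of phm, in intergenic sequence at X 18684575, with rank 2040 in the pooled list and a signal value of 852.2. This is 3963 bp past the 3′ end of Cyp18a1 (FBgn0010383, X 18688538 to 18693042, minus strand), and the nearest protein-coding start was that of phm.

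The phm summit was found in all 4 replicates, within 23 bp of each other. It ranked 1601, 4216, 1650 and 2006 in replicates 1 to 4, averaging 2368 ± 1240 (SD, n = 4). It reached 1.20%, 0.636%, 1.98% and 1.57% of the highest value in replicates 1 to 4, so replicate 2 was the lowest on both scales. The summit 988 bp upstream of phm (rank 6761) likewise lay under 260 bp from this stronger summit. Its rank was 7042, 16381, 13276 and 5938 in replicates 1 to 4, and it held no core.

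The start of Cyp18a1 itself had weak summits outside the reproducible list. The pooled list had one 59 bp upstream at rank 22743. Replicates 1 and 2 had one 199 and 222 bp upstream at ranks 23436 and 28522. Replicate 4 had one 43 bp downstream and one 159 bp upstream at ranks 18452 and 22769, and replicate 3 had none nearer than 1842 bp downstream of the start. Farther upstream of Cyp18a1 the pooled list had summits at 2700 and 3506 bp, at ranks 18675 and 25905. Every replicate had at least 1 summit between 2381 and 2900 bp upstream, at ranks from 18148 to 27603. None of these was in the reproducible list. Both reproducible summits counted at Cyp18a1 were thus those upstream of phm.

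**Figure D4:**
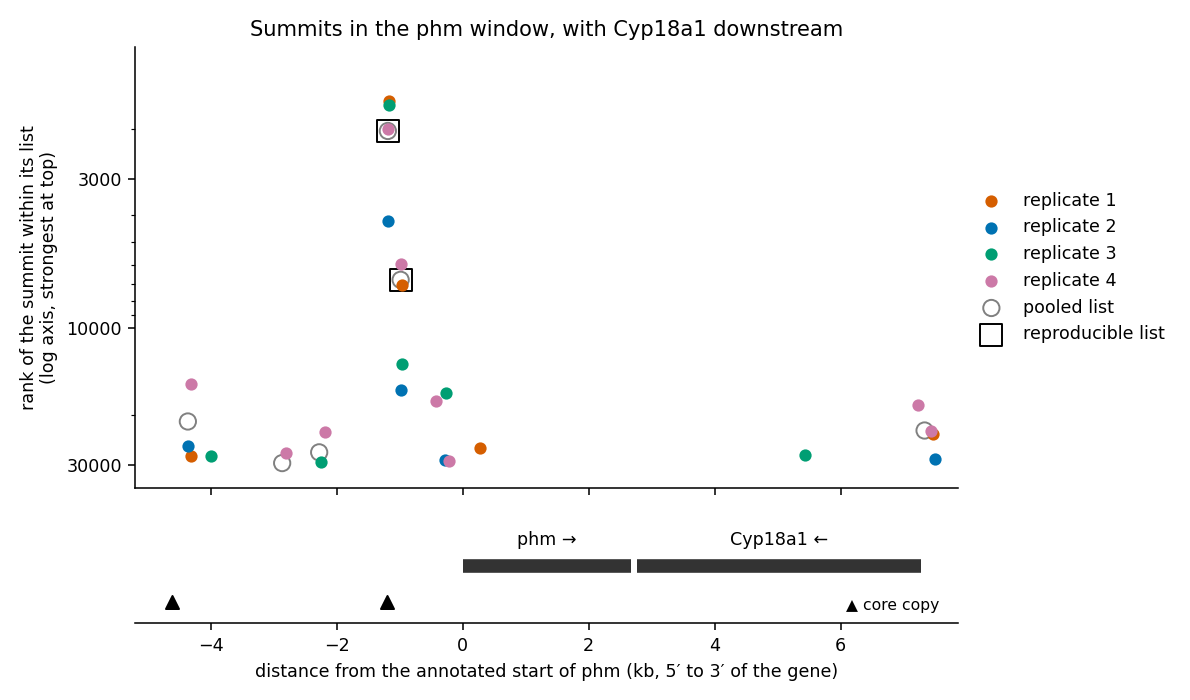
Rank of every summit in the phm window within its own list (vertical log axis, strongest at top) against distance from the annotated phm start in kb, for the 4 replicates (points), the pooled list (circles) and the reproducible list (squares). Bars show phm and Cyp18a1 with arrows for their direction and triangles mark copies of the core; the strongest summit of every list, at rank 1601 to 4216 in the replicates, lies 1.2 kb upstream of phm.

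The reproducible summit in the window of sro (FBgn0262112, 3R 29794597 to 29795805, plus strand) lay nearer to the starts of other genes. It lay at 3R 29799601, 3796 bp past the 3′ end of sro and 57 bp upstream of the start of Drice, which encodes an effector caspase. The gene Rnb, on the minus strand, starts at 3R 29799354, so the summit lay between the starts of Rnb and Drice. The rank of the summit was 3270 in the pooled list and 7685, 3092, 4557 and 2351 in replicates 1 to 4. Near the start of sro the pooled list had summits 232 and 920 bp upstream, at ranks 20093 and 21357. Replicates 1 and 4 had partners at ranks between 21304 and 29671, and replicates 2 and 3 had none upstream of sro.

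The windows of sad and dib, which encode late hydroxylases, held no pooled summit. In the sad window (FBgn0003312, 3R 11877235 to 11879754, plus strand) no summit was shared by all replicates. Replicates 1 and 2 had one 2845 and 2847 bp past the 3′ end, at ranks 8747 and 3649, with 0.336% and 0.705% of the highest value. It lay 65 and 67 bp upstream of the start of CG6962. Replicates 1 and 4 had one 4344 and 4332 bp upstream of sad at ranks 8078 and 19469. The same replicates had one 3648 and 3656 bp upstream at ranks 25056 and 23777, to which the start of sad was the nearest. Replicate 3 had none in the window. The nearest pooled summit was 7275 bp from sad, at rank 17053. A stronger, reproducible summit lay 7638 bp past the 3′ end of sad, at 3R 11887392, with rank 623. Its nearest start was that of mthl5.

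The window of dib (FBgn0000449, 3L 4062292 to 4064551, plus strand) held no summit in any replicate. A strong summit lay just outside it, 6031 bp from the 3′ end of dib at 3L 4070582, with rank 562 in the pooled list and 310, 411, 384 and 922 in replicates 1 to 4. It lay within the span of wit, which encodes a BMP type II receptor. The nearest start was that of CG32259, at 1093 bp, but in replicate 4 it was that of wit, at 1110 bp. The window of spo (FBgn0003486, 3L 5590083 to 5592571, minus strand) held no summit in any replicate either. The nearest were 10208 bp away in the pooled list and between 10027 and 12062 bp away in the replicates. Of all protein-coding genes, 19.2% had no summit in any replicate's list, as was the case for 4 of the 9 genes (dib, spo, nvd and spok). Among genes with spans of 20000 bp or more, such as nvd and spok, the share was 5.59%.

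The sequences of dib, spo, sad and sro were not free of the core. The windows of the 9 genes held 47 copies of ACAATGT, of which 3 (6.38%) were at a reproducible summit, against 3.17% of all 23597 copies on the chromosome arms. Of the 47 copies, 35 lay in the windows of nvd and spok, which had no summit, and the other 12 included the 3 at a summit. The 3 copies at a summit are shown first, each with 10 bases on either side and read so that the core is in capitals as ACAATGT. The strand given is the one read.
shd, 2643 bp upstream, chr3L:14611802-14611828, minus strand: cgcaactacaACAATGTttgttaccac
shd, 1193 bp upstream, chr3L:14613252-14613278, minus strand: gaccgtgactACAATGTtgccactggc
phm, 1205 bp upstream, chrX:18684548-18684574, minus strand: agcagcagcgACAATGTtcttgagtgg
The 9 copies without a summit follow in the same layout, to show that a copy of the core was not always at a summit in these windows.
sad, 4556 bp downstream of the start, chr3R:11881778-11881804, minus strand: atgcaaatccACAATGTgcgcagcaaa
dib, 274 bp downstream of the start, chr3L:4062553-4062579, minus strand: gtacaaccagACAATGTcctgcccagg
dib, 2231 bp downstream of the start, chr3L:4064510-4064536, plus strand: atattccagtACAATGTttagttaaat
dib, 3337 bp downstream of the start, chr3L:4065616-4065642, plus strand: cgatcggggtACAATGTgagcgggagt
phm, 4622 bp upstream, chrX:18681131-18681157, plus strand: aggtgtcgaaACAATGTgtggcgcgca
spo, 5236 bp downstream of the start, chr3L:5587322-5587348, plus strand: caaaagaaaaACAATGTaagcaaggac
spo, 3706 bp downstream of the start, chr3L:5588852-5588878, plus strand: atatatagtaACAATGTaattattttt
sro, 4703 bp upstream, chr3R:29789881-29789907, minus strand: aagtttcctaACAATGTgctgatgatc
sro, 1135 bp downstream of the start, chr3R:29795719-29795745, minus strand: ccaatgtgctACAATGTatatttaaaa

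The full degenerate consensus was present in 2 of the 3 copies at a summit, those 1193 bp upstream of shd and 1205 bp upstream of phm, and in 1 of the 9 copies without one, in an intron near spo. Over the chromosome arms 4.64% of the 6073 core copies with the full consensus were at a reproducible summit, and 2.65% of the 17524 copies without it. In the dib window, which neighbours reach into, 1 copy lay 274 bp downstream of the dib start, 1 in a 3′ untranslated region and 1 in a coding exon of an annotated gene. The sad copy and 1 spo copy also lay in coding exons, past the 3′ ends of sad and spo.

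The genes nvd and spok differ from the other enzymes in their surroundings. They lie in the centromere-proximal parts of chromosome arms 3L and 3R (nvd, FBgn0287185, 3L 24324866 to 24401655; spok, FBgn0086917, 3R 3322810 to 3354486, both on the plus strand). No pooled summit lay within 100 kb of either, which was so for 0.795% of protein-coding genes. The nearest pooled summit was 296362 bp from nvd and 435415 bp from spok. In the replicates the nearest was 134337 to 634544 bp from nvd and 232825 to 773198 bp from spok. The other members had 13.3 to 38.0 pooled summits per 100 kb in the same surroundings, against a median of 23.9 over all protein-coding genes.

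Repeated sequence moved with this absence. In the windows of nvd and spok, 54.6% and 52.3% of the 31-base sequences occurred more than once in the assembly on either strand. This share was between 0% and 0.103% in the windows of the other 7 genes, and its median over all protein-coding genes was 0.0191%. Whether reads from this repeated sequence could be placed uniquely was not tested. How the authors treated reads from repeated sequence is not given in the sources used here. Repeats were measured in the gene windows only, not in the wider surroundings without summits. Of the 299 genes with 50% or more of repeated sequence in the window, 15.7% had a pooled summit, against 66.6% of all genes, and 75.9% had none in any replicate, against 19.2% of all genes. The part of repeats in the absence of summits at nvd and spok was not tested. The nvd and spok windows held 35 copies of the core, none near a summit.

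**Figure D5:**
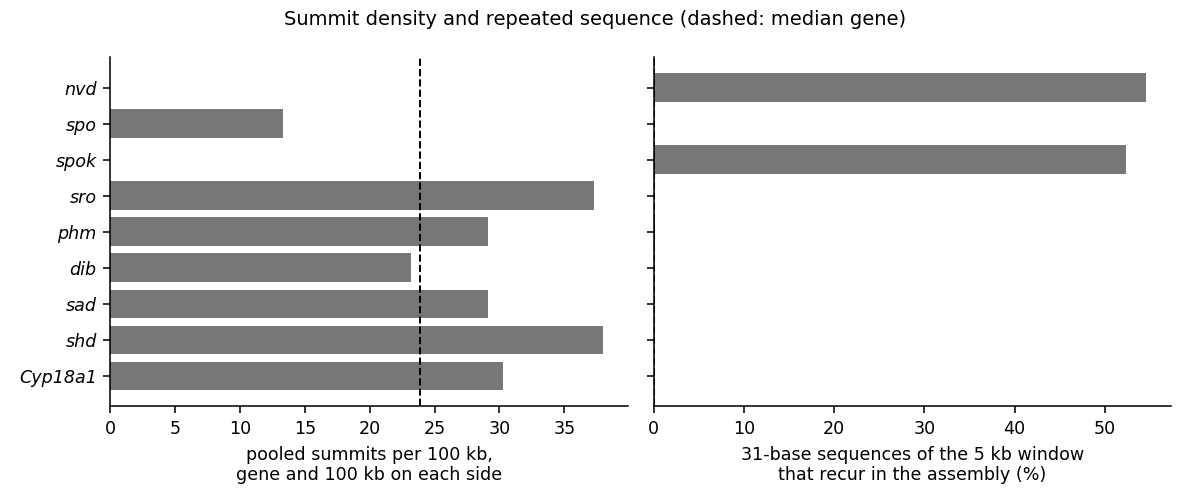
Pooled summits per 100 kb in each gene and 100 kb on each side (left) and percentage of 31-base sequences of the 5 kb window that recur in the assembly (right), for the 9 genes in the order of their steps; dashed lines give the median over all protein-coding genes. The bars of nvd and spok are at 0 on the left and at 54.6% and 52.3% on the right.

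Genes that regulate or supply the pathway included some of the stronger summits. Of 23 such genes, 16 (69.6%) had a reproducible summit in their window, against 4 of the 9 enzyme genes and 52.3% of all protein-coding genes. Long genes have wide windows: with spans of 20000 bp or more, 74.3% of all genes had one, and with spans under 5000 bp 47.1%. The strongest of these summits lay 17950 bp downstream of the start of mld, which encodes a zinc finger factor needed for transcription of nvd and spok. It had rank 50 in the pooled list and 65, 86, 39 and 44 in replicates 1 to 4. The nvd and spok windows themselves held no summit.

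The next in rank was Hr4, which encodes a nuclear receptor that acts in the prothoracic gland, with a summit of rank 290 in the pooled list and 221, 259, 417 and 334 in replicates 1 to 4. The hormone transporter gene Atet had one at -847 bp from its start, at rank 611. The nuclear receptor gene ftz-f1 (rank 1067), the repressor gene ken (839), woc (2955) and kni (7834) also had their own start nearest to their strongest summit. How often this holds over all genes is not given here. The strongest Oatp74D summit lay inside the span of that gene, 4709 bp downstream of its start. For the other 9 of the 16, Oatp74D included, the nearest start was that of another gene. These were Ptth, the neuropeptide that stimulates the gland (rank 593), dare and the ferredoxin genes Fdx1 and Fdx2 of the electron supply (955, 5407 and 2433), Cyp6u1 (999), the ecdysone importer gene Oatp74D (1179), ecd (1755), the sterol transfer gene Npc2a (3878) and the ecdysone oxidase gene Eo (8448). The 7 genes without a reproducible summit were ouib, which encodes a zinc finger activator of spok, vvl, tor, the receptor gene for PTTH, Npc1a, Start1, GstE14 and Cyp6t3.

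Within the P450 family the summit at shd was the strongest. Of 83 other genes taken as P450 genes by their symbols, 21 (25.3%) had a reproducible summit in their window, against 52.3% of all protein-coding genes. The 83 include Cyp40, whose symbol lacks the subfamily letter of a P450 name and which had 0 such summits. Among all genes with spans under 5000 bp the share was 47.1%. Against rank 7 at shd, the strongest summit at these 21 genes had rank 199. That summit was shared by Cyp9f2 and Cyp9f3, and the nearest start was that of DNAlig3. Among the 8 whose strongest summit had their own start nearest, the strongest was at Cyp4d20, -1033 bp from its start, with rank 695 in the pooled list and 1175, 550, 673 and 763 in replicates 1 to 4. By rank phm, at 2040, lay within the range of these 21 genes.

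By strength the shd summit had neighbours in rank on both sides, some of which kept their order with it in every replicate. Directly above it in the pooled list were the summits nearest to the starts of Sesn and CG46429, AdipoR and E2f1, and directly below it those of CG13073, bab1 and CG18404. The shd summit ranked 6, 7, 7 and 7 in replicates 1 to 4, against 4, 4, 6 and 6 for the E2f1 summit, which was the stronger in all 4. The bab1 summit, at 8, 12, 8 and 11, and the CG18404 summit, at 14, 13, 9 and 10, were weaker than the shd summit in all 4.

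The other neighbours changed sides with the shd summit. The summit nearest to Sesn and CG46429 ranked 10, 5, 5 and 4 in replicates 1 to 4, and was weaker than the shd summit in replicate 1 and stronger in the other replicates. The AdipoR summit, at 9, 8, 4 and 5, was weaker in replicates 1 and 2 and stronger in replicates 3 and 4. The CG13073 summit, at 5, 6, 11 and 9, was stronger in replicates 1 and 2 and weaker in replicates 3 and 4.

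As a percentage of the list's highest value, the shd summit had 16.1%, 17.1%, 32.2% and 33.4% in replicates 1 to 4, against 21.6%, 20%, 35.4% and 37.5% for the E2f1 summit. Both were higher in replicates 3 and 4 than in replicates 1 and 2, so the spread over replicates of each holds a difference between lists that both share.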

How the data were processed

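Doublesex ChIP-seq of 4 samples of whole prepupae was used as 6 deposited peak lists. Per the deposited text notes, each replicate's peaks were called with 1 control file, pooled peaks on replicates 2, 3 and 4, and the reproducible list from these by an optimal irreproducible discovery rate, all on dm6. Which aligner, caller and threshold were used is not given in the sources used here. The deposited signal score is the authors' own and was used within lists only. The deposited −log10 q-value has a ceiling shared by all reproducible summits and was not used. Depth was unknown and control data were not analysed here.

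Gene models were Ensembl release 115 and sequence the RefSeq copy of the assembly. The annotated start codon of all 9 members read ATG in it, and 0 summits lay beyond an arm's end. A summit was assigned to a gene inside its span or within 5000 bp, and a replicate supported it with its strongest summit within 100 bp. Promoter class meant within 500 bp of a protein-coding start. Motifs were sought on both strands. A summit counted as secondary when a stronger one lay under 260 bp below it. Scripts ran in Python 3.11.15 with pandas 2.3.3 and NumPy 2.4.6, and counting was checked on simulated data.

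All 9 members are named, with every reproducible summit. The list of other pathway genes matched 24 of 27 symbols. The symbol sea was left out, since it names a citrate carrier, as was Cyp1, a cyclophilin, from the 84 symbols of the P450 rule. The members and lists were chosen with earlier results of these data known. The core copies with flanks and the repeat shares were added after the summit counts were seen. No comparison between groups was tested, since there was 1 group. Dixon's ratio was used to look for a replicate far from the others.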

Additional observations from a re-analysis of the deposited data

Results flagged for a closer look

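In 19 measures at these genes with 4 replicate values, Dixon's ratio (an extreme replicate's gap to its neighbour, divided by the range) was set against its 95% critical value. Chance flags about 1 in 20 such groups when values are independent and continuous, and 2 of the 19 passed. Ranks are whole numbers that can tie, so this rate need not hold here.

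The rank of the summit 1194 bp upstream of shd had a ratio of 1.0, because replicate 1 had rank 6 and replicates 2, 3 and 4 all had rank 7. The whole range was 1 place. The rank of the summit 1191 bp upstream of phm had a ratio of 0.845, because replicate 2 had rank 4216, against 1601, 1650 and 2006 in replicates 1, 3 and 4.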

How the results depend on the processing

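The 6 results were recomputed under 38 alternatives, of which 32 kept the value within 1.5 times, or within 1 SD for the mean rank. The number of genes with a reproducible summit depended on the distance and the assignment. It was 4 within 5000 bp, 6 within 10000 bp, 2 within 1000 bp, 2 within 2000 bp and 0 inside the gene span. It was 2 (shd and phm) where the nearest start had to belong to the gene. The number with a pooled summit was 4 within 5000 bp, 6 within 10000 bp and 1 inside the span. No share of all genes is given here for the gene span, for 1000, 2000 or 10000 bp, or for the nearest-start rule. Whether the counts under these settings differ from those of all genes was therefore not tested. Summits with ACAATGT numbered 3, and those with ACAAAGT 0. With each replicate left out, genes with a summit in all remaining lists ranged from 4 to 5 (5 without replicate 3, through sad), supported summits from 7 to 8, and the mean rank at shd from 6.67 to 7.0. No paired analysis was possible because there was 1 group. The fixed list length of 30000 lets weak summits enter, and depth was unknown, so a missing summit does not show a lack of binding.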
